A study of Mus musculus with 9 samples.

Results

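Expression of 9 genes that mark the layers of the cerebral cortex was followed in RNA sequencing libraries of mouse cortical neurons. The genes were chosen by name (Cux1, Cux2 and Rorb for the upper layers, Bcl11b, Fezf2, Tbr1, Tle4 and Foxp2 for the deep layers, and Neurod2 for excitatory neurons of all layers). They are 9 of 54232 genes counted, all 9 matched 1 Ensembl identifier each, and all 9 were among the 15712 genes that passed the filter on low counts. The 9 libraries formed 3 groups of 3 repeats, and all came from wild-type CD1 mice, an outbred stock. PA + PS2 libraries carried names that give IKVAV plus PEDOT-S-OH, PA libraries carried names that give IKVAV, and control libraries carried names that give PDL. PA is a peptide amphiphile, a peptide with a fatty tail that assembles into fibres; IKVAV is a cell-binding sequence of laminin, and PEDOT polymers conduct electricity. The treatment field reads peptide amphiphile for every library, controls included, so the groups follow the titles. The labels do not give the age of the animals, the time in culture, or whether the repeats were separate cultures, so the p-values measure the spread between these libraries, which may be technical.

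The cortex is built in layers that differ in where their neurons send axons. Neurons of layers II to IV connect within the cortex, layer V holds the neurons that project to the spinal cord and brainstem, and layer VI holds those that project to the thalamus. Transcription factors that repress each other fix these choices after the last division, and many remain expressed in the mature neuron, which makes them the standard markers of layer identity. Tle4 differs from the other 8 in that it encodes a corepressor of the Groucho family, which acts through DNA-binding partners.

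The labelled cell type was checked against marker genes. General neuron markers such as Tubb3, Map2 and Snap25 summed to between 9295 and 11618 CPM (read counts scaled to the size of the library) in every library, with all 11 genes detected above the filter. Fibroblast and mural cell markers summed to 12.02 to 56.8 CPM in PA + PS2, 91.2 to 159 CPM in PA and 134 to 193 CPM in control, and progenitor and dividing cell markers to 291 to 321, 421 to 521 and 377 to 613 CPM. GABAergic interneuron markers summed to 1652 to 2055 CPM and striatal projection neuron markers to 679 to 864 CPM over the 9 libraries. Most of the striatal sum came from Meis2 and Pde10a, which other neurons also express, with medians of 387 and 240.007 CPM over the libraries, while the dopamine receptor genes Drd1 and Drd2 had medians of 3.16 and 4.09 CPM and the neuropeptide gene Tac1 0.673 CPM. Bcl11b and Foxp2 are also expressed by striatal neurons, and Bcl11b by interneurons, and in bulk RNA fewer cells of a type and less RNA per cell cannot be told apart. Total counts ran from 20746851 to 27237398 per library. PA repeat 2 stood apart with 24702 genes detected, against 22064 to 23223 in the other 8 libraries, and PA repeat 1 with a mitochondrial share of 0.342%, against 0.531% to 1.39% in the others. Without PA repeat 1, the log2 fold changes of PA against control were −0.023 for Cux1, −0.044 for Cux2, −0.078 for Bcl11b, 0.10 for Rorb and −0.046 for Neurod2, each with the opposite sign to that with all libraries. Without PA repeat 2, those of PA + PS2 against PA were −0.085 for Cux1, −0.054 for Cux2, −0.063 for Bcl11b, −0.015 for Tbr1 and 0.11 for Fezf2, again with the sign turned.

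The 9 genes together took 0.134% to 0.181% of the counts of a library, the lowest share in PA repeat 2 and the highest in PA repeat 1. Reads per gene and library ran from 285 for Foxp2 in PA repeat 2 to 12033 for Neurod2 in PA + PS2 repeat 2, and counting alone gives these 2 values errors of 5.92% and 0.912%. Levels were compared between genes only after division by exon length, as CPM per kilobase of merged exons. On that scale Neurod2 was the highest of the 9 in every group, with 141 ± 5.92 in PA + PS2, 125 ± 29.4 in PA and 114 ± 10.7 in control (SD, n = 3 each). Averaged over the 9 libraries it lay above 98.8% of the 13420 protein-coding genes tested. Bcl11b followed with 47.8 ± 1.88, 45.5 ± 8.84 and 45.2 ± 4.84 CPM per kilobase in PA + PS2, PA and control, and Tbr1 with 36.2 ± 1.19, 34.3 ± 4.78 and 34.6 ± 0.857.

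Cux2 and Fezf2 came next on the per-length scale, at 20.6 and 19.9 CPM per kilobase over all 9 libraries. Their order varied between libraries. Cux2 was above Fezf2 in PA + PS2, where the libraries of the 2 genes did not overlap, while in PA and control they did. In PA the means were nearly equal, at 20.6 for Cux2 and 20.8 for Fezf2. Cux2 was the higher in PA repeats 1 and 3, and the lower in PA repeat 2 (13.6 against 26.2). In control Cux2 had the lower mean, though it was the higher in repeat 3 (19.8 against 12.5). Cux1 followed at 12.2, Tle4 at 8.97, Rorb at 5.34 and Foxp2 at 1.33 CPM per kilobase. Foxp2 lay above 24.3% of the coding genes and Rorb above 48.8%. In control, every pair of neighbours in this order other than Fezf2 and Cux2 was separated in all 3 libraries. In PA, Bcl11b and Tbr1, Fezf2 and Cux2, and Cux2 and Cux1 overlapped. Merged exon lengths count every annotated exon, which were 20024 bases for Cux1 and 16346 for Foxp2 against 3047 for Fezf2, so the per-length level of a gene with many alternative exons is understated.

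**Figure D1:**
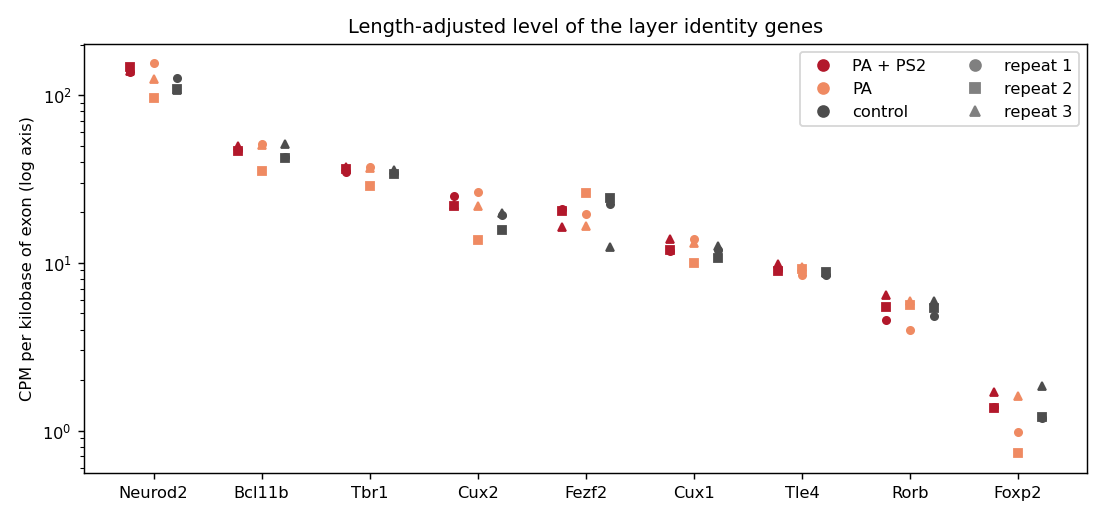
Level of each gene in CPM per kilobase of exon on a log axis, 1 point per library, coloured by group (PA + PS2, PA, control from left to right within a gene) and shaped by repeat number. Neurod2 lies between 95.4 and 154 in all libraries and Foxp2 between 0.730 and 1.84.

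No layer gene passed the test in any comparison. Of the 9, 0 in PA + PS2 against control had an adjusted p under 0.05 in the quasi-likelihood test of edgeR, where 0.0446% of all genes tested did. For PA against control and PA + PS2 against PA the count was also 0, and the background was 0% in both. In the same fit, which leaves the repeat number out, the count at an unadjusted p under 0.05 was again 0 of 9 in each comparison. Over all genes it was 5.63% in PA + PS2 against control, 1.22% in PA against control and 5.61% in PA + PS2 against PA. DESeq2 and the fit with the repeat number as a block passed 0 of the 9 in each comparison as well. DESeq2 called 1.43% of all genes in PA + PS2 against control, 0% in PA against control and 0.815% in PA + PS2 against PA. With the block, 1.17% of all genes passed in PA + PS2 against control, 0% in PA against control and 0.363% in PA + PS2 against PA. The block gave the layer genes smaller standard errors. In PA + PS2 against control Cux2 then stood at 0.34 ± 0.13 and Neurod2 at 0.32 ± 0.12 (edgeR adjusted p = 0.42 and 0.43). Foxp2 stood at −0.38 ± 0.14 in PA against control and 0.48 ± 0.14 in PA + PS2 against PA. Unadjusted p-values of the blocked fit were not counted.

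Positions are those of the annotated gene in build mm10. Among the upper layer genes, Cux2 (chr5:121856366-122050102, minus strand), a homeobox gene that promotes dendritic branching and spines in layers II to IV, had the largest difference. Its levels were 252, 221 and 222 CPM in PA + PS2 repeats 1, 2 and 3, 267, 137 and 220.1 CPM in the PA repeats, and 195, 157 and 199.8 CPM in the control repeats. All 3 PA + PS2 libraries lay above all 3 control libraries, while PA held both the highest and the lowest library of the series. The log2 fold change was 0.33 ± 0.20 (SE) in PA + PS2 against control, with a 95% confidence interval of −0.10 to 0.76 (edgeR adjusted p = 1.00), a fold of 1.26 with an interval of 0.935 to 1.69. Within repeats 1, 2 and 3 it was higher in PA + PS2 than in control each time, by between 0.15 and 0.49 on the log2 scale. Between PA and control the value was 0.18 ± 0.20, and it was higher in 2 of 3 repeats. Without PA repeat 2 it stood at 0.40, and without PA repeat 1 at −0.04.

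Cux1 (chr5:136248135-136567490, minus strand), its paralog, which has related roles in upper layer dendrites and is also expressed outside the nervous system, was read at 237, 238 and 278 CPM in PA + PS2, 278, 200.4 and 261 CPM in PA, and 237, 215 and 252 CPM in control. The 3 groups overlapped. Its log2 fold change was 0.10 ± 0.13 in PA + PS2 against control, 0.07 ± 0.13 in PA against control and 0.03 ± 0.13 in PA + PS2 against PA (edgeR adjusted p = 1.00 in each). The intervals ran from −0.18 to 0.38, from −0.21 to 0.35 and from −0.25 to 0.30. A gene on the opposite strand, Gm16599, shares 394 exon bases with Cux1, and it had 0 to 2 reads per library.

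Rorb (chr19:18930605-19111196, minus strand), an orphan nuclear receptor of layer IV neurons that receive thalamic input, had 50.6, 60.8 and 70.8 CPM in PA + PS2, 43.9, 62.0 and 65.7 CPM in PA, and 53.3, 59.5 and 65.4 CPM in control. The groups overlapped almost fully, and in each group repeat 1 was the lowest library and repeat 3 the highest. Its log2 fold change was 0.03 ± 0.16 in PA + PS2 against control, with an interval of −0.32 to 0.39, and −0.05 ± 0.16 in PA against control, with an interval of −0.41 to 0.30 (edgeR adjusted p = 1.00 in both).

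**Figure D2:**
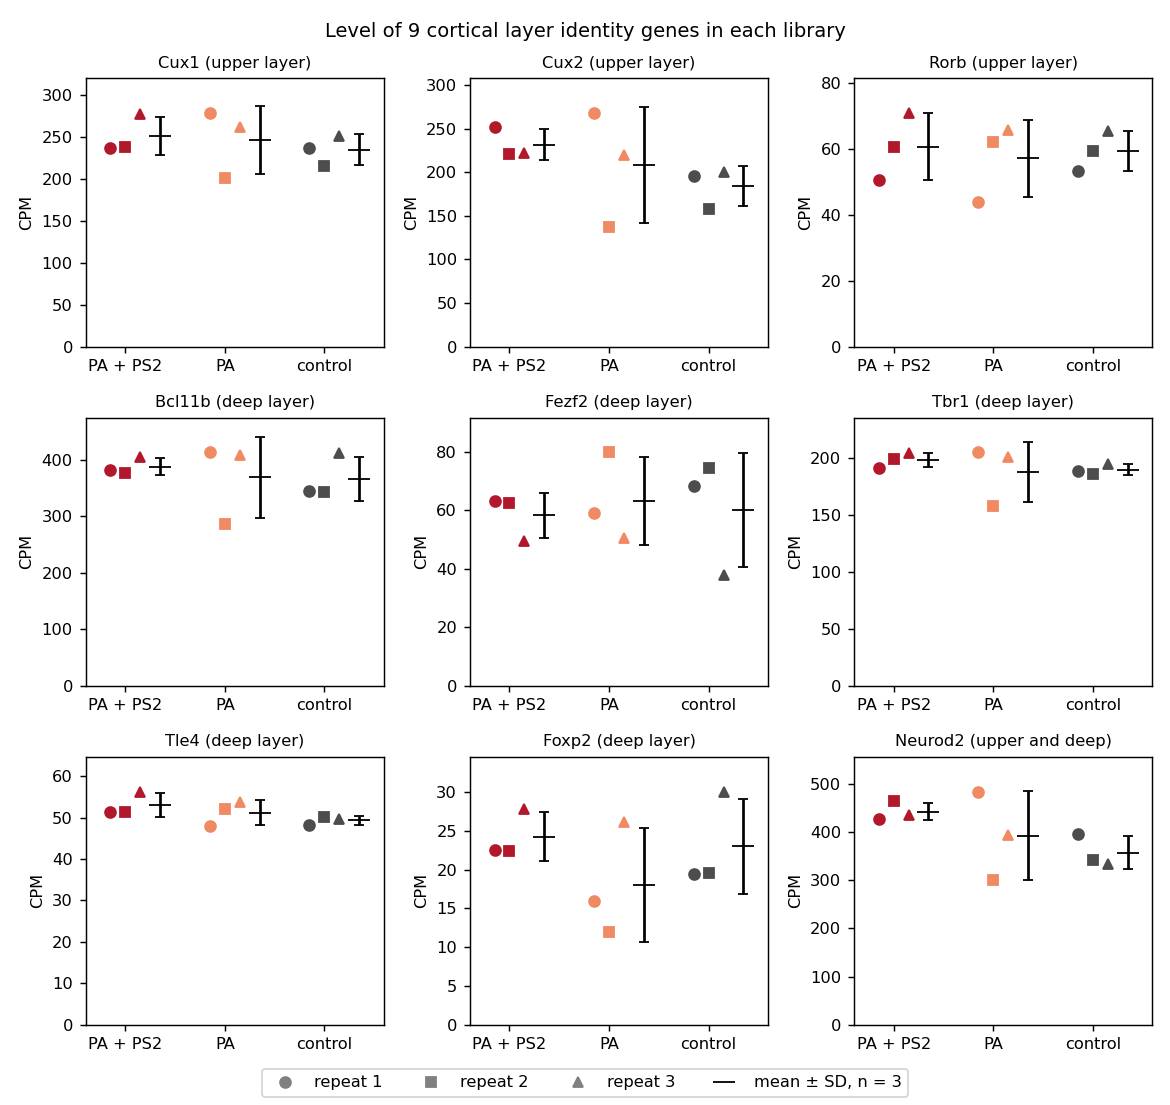
CPM of each gene, 1 panel per gene, for PA + PS2, PA and control from left to right, with 1 point per library shaped by repeat number and a bar for the mean with its SD (n = 3). Axes start at 0 and differ between panels. The PA + PS2 points of Cux2 (221 to 252 CPM) lie above those of control (157 to 199.8 CPM), while for Rorb, Fezf2 and Foxp2 the repeat numbers separate more than the groups.

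Among the deep layer genes, Bcl11b (chr12:107910403-108003602, minus strand), the zinc finger repressor CTIP2 of layer V neurons that project below the cortex, was the most abundant. It was read at 382, 376 and 405 CPM in PA + PS2, 413, 286 and 408 CPM in PA, and 345, 343 and 412 CPM in control. PA repeat 2 was the lowest library and the groups overlapped. Its log2 fold change was 0.08 ± 0.14 in PA + PS2 against control, with an interval of −0.22 to 0.38, and 0.01 ± 0.14 in PA against control, with an interval of −0.29 to 0.31 (edgeR adjusted p = 1.00 in both). Without PA repeat 2 the second value was 0.15.

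Fezf2 (chr14:12342094-12348189, minus strand), a zinc finger factor that specifies corticospinal neurons and acts upstream of Bcl11b, was read at 63.3, 62.4 and 49.6 CPM in PA + PS2, 59.1, 79.9 and 50.7 CPM in PA, and 68.3, 74.4 and 38.1 CPM in control. Repeat 3 was the lowest library in each group, and the groups overlapped. Log2 fold changes were −0.05 ± 0.23 in PA + PS2 against control, 0.07 ± 0.23 in PA against control and −0.11 ± 0.23 in PA + PS2 against PA (edgeR adjusted p = 1.00 in each). The first of these had an interval of −0.55 to 0.46 (a fold of 0.683 to 1.37). With the repeat as a block the value was −0.0035 ± 0.12. Its sign depended on single libraries: it was 0.14 without control repeat 2 and −0.29 without control repeat 3.

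Tbr1 (chr2:61802930-61814114, plus strand) is a T-box factor of layer VI and subplate neurons that represses Fezf2 there. It had the second smallest relative spread of the 9 and was read at 192, 199 and 204 CPM in PA + PS2, 205, 158 and 201 CPM in PA, and 189, 186 and 195 CPM in control. Only PA repeat 2 lay outside the range of 186 to 205 CPM. A log2 fold change of 0.06 ± 0.11 was found in PA + PS2 against control, with an interval of −0.17 to 0.30, and −0.01 ± 0.11 in PA against control, with an interval of −0.25 to 0.22 (edgeR adjusted p = 1.00 in both). Tle4 (chr19:14448150-14598051, minus strand), the corepressor of layer VI corticothalamic neurons, varied least, with 51.4, 51.2 and 56.3 CPM in PA + PS2, 47.9, 52.0 and 53.7 CPM in PA, and 48.1, 50.04 and 49.7 CPM in control. Its PA + PS2 libraries lay just above its control libraries without overlap. That log2 fold change was 0.10 ± 0.09 in PA + PS2 against control, with the narrowest interval of the 9, −0.10 to 0.30 (edgeR adjusted p = 1.00).

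Foxp2 (chr6:14901349-15441977, plus strand), a forkhead repressor of layer VI and of striatal neurons, had the lowest level of the 9 and the widest relative spread. It was read at 22.5, 22.4 and 27.9 CPM in PA + PS2, 16.0, 11.9 and 26.1 CPM in PA, and 19.4, 19.6 and 30.1 CPM in control. In each group repeat 3 was the highest library, and PA repeats 1 and 2 were the lowest of all 9. The log2 fold change was 0.43 ± 0.26 in PA + PS2 against PA, with an interval of −0.14 to 0.99 (edgeR adjusted p = 1.00). With the repeat as a block it was 0.48 ± 0.14 (edgeR adjusted p = 0.21). It was 0.22 without PA repeat 2 and 0.80 without PA repeat 3. Set against control, PA stood at −0.35 ± 0.26, with an interval of −0.92 to 0.22, and was lower in all 3 repeats, with values of −0.11 without control repeat 3 and −0.72 without PA repeat 3. The PA + PS2 value against control was 0.08 ± 0.26. PA and PA + PS2 were each set against the same 3 control libraries.

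Neurod2 (chr11:98325415-98329648, minus strand), a helix-loop-helix activator of maturing excitatory neurons in all layers, was read at 428, 464 and 437 CPM in PA + PS2, 484, 299.9 and 393 CPM in PA, and 396, 342 and 335 CPM in control. The PA + PS2 libraries lay above the control libraries without overlap, and PA spanned both. The log2 fold change in PA + PS2 against control was 0.31 ± 0.15, with an interval of −0.02 to 0.63 (edgeR unadjusted p = 0.061, adjusted p = 0.95), a fold of 1.24 with an interval of 0.988 to 1.55. This was the smallest p of any layer gene in any of the 3 comparisons. Within repeats Neurod2 was higher in PA + PS2 than in control in 3 of 3, by between 0.11 and 0.44 on the log2 scale. Besides Cux2, Tbr1 (0.020 to 0.10) and Tle4 (0.034 to 0.18) were also higher in 3 of 3. The share of all genes that did so was not counted. For PA against control the value of Neurod2 was 0.13 ± 0.15, and it was −0.05 without PA repeat 1.

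Groups did not overlap for 3 of the 9 in PA + PS2 against control (Cux2, Tle4 and Neurod2, all higher), where 11.9% of all genes did not overlap (5.38% of all genes higher, 6.54% lower). The count was 0 of 9 in PA against control, where 4.04% of all genes did not overlap (1.97% higher, 2.07% lower). It was also 0 of 9 in PA + PS2 against PA, with 9.64% of all genes (3.32% higher, 6.32% lower). The median log2 fold change of the 9 was 0.08 in PA + PS2 against control, 0.05 in PA against control and 0.08 in PA + PS2 against PA, against −0.0007, −0.0084 and 0.0055 over all genes. The 3 upper layer genes had a median of 0.10 in PA + PS2 against control and the 5 deep layer genes 0.08. Scaled to the general neuron markers in place of all genes, an alternative chosen after seeing the data, Cux2 stood at 0.27 and Neurod2 at 0.24 in that comparison, while Rorb and Tbr1 turned to −0.04 and −0.0048.

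**Figure D3:**
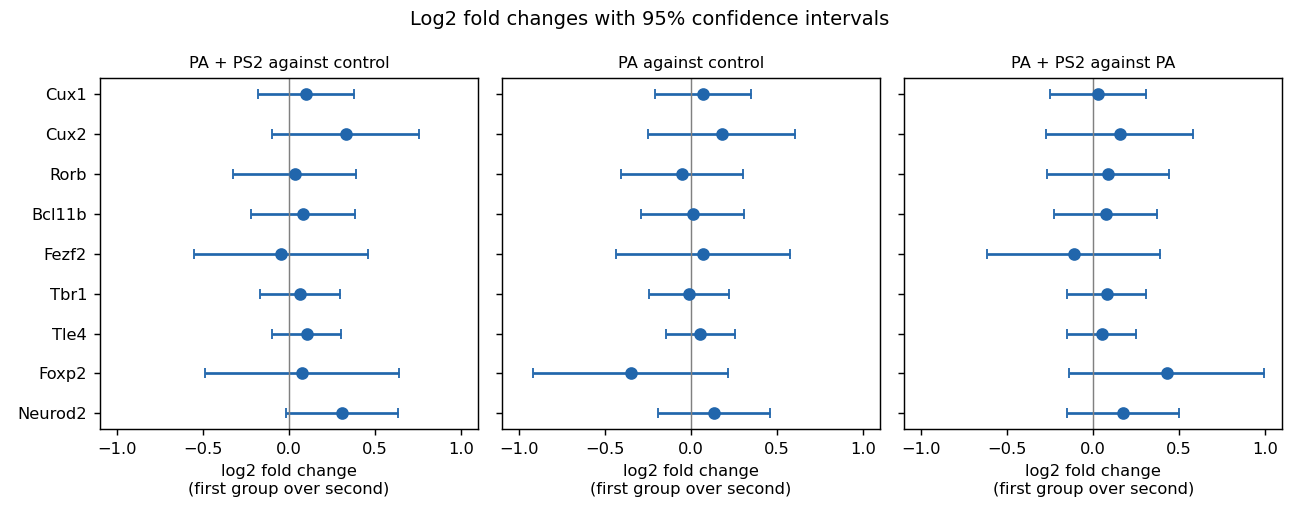
Log2 fold change of each gene with its 95% confidence interval in the 3 comparisons, the first-named group over the second. The intervals are those of the fit that leaves the repeat number out, and those of the blocked fit are not drawn. Every interval drawn crosses 0, and the widest is that of Foxp2 in PA against control (−0.92 to 0.22).

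The balance of upper and deep layer genes was summarised per library as the mean log2 CPM of Cux1, Cux2 and Rorb minus that of the 5 deep layer genes. It is a value for comparing libraries and was not tested. It was 0.71, 0.74 and 0.84 in PA + PS2 repeats 1, 2 and 3, 0.85, 0.68 and 0.79 in PA, and 0.69, 0.56 and 0.80 in control. The means were 0.76 ± 0.07, 0.77 ± 0.08 and 0.68 ± 0.12 (SD, n = 3 each), and the 3 groups overlapped. PA + PS2 stood 0.081 above control, PA 0.094 above control, and the PA + PS2 mean minus the PA mean was −0.013, on the log2 scale. These values rested on single libraries: against control, PA + PS2 ran from 0.019 without control repeat 2 to 0.14 without control repeat 3, and PA from 0.033 to 0.15 without the same libraries. As a log2 ratio of summed reads per kilobase, the PA + PS2 difference from control was 0.16. With Rorb left out, an alternative that was not planned, PA + PS2 stood 0.145 and PA 0.150 above control. The PA + PS2 mean minus the PA mean was then −0.0046, and the groups still overlapped.

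Single ratios showed more than this average. The ratio of Bcl11b to Tbr1 reads lay between 1.81 and 2.11 in all 9 libraries, a span of 1.16 times. The ratio of Fezf2 to Foxp2 reads, also a pair of deep layer genes, was 2.81, 2.79 and 1.78 in PA + PS2, 3.70, 6.69 and 1.94 in PA, and 3.52, 3.80 and 1.27 in control, a span of 5.28 times. Without PA repeat 2 the span was 3.004 times. Repeat 3 had the lowest ratio in each group, and the groups overlapped. Among upper layer genes the ratio of Cux2 to Rorb reads ran from 2.21 in PA repeat 2 to 6.09 in PA repeat 1, a span of 2.76 times that was 2.30 times without PA repeat 2 and 2.25 times without PA repeat 1, while that of Cux2 to Cux1 spanned 1.56 times. Each ratio is free of the scaling of the library, since both genes were counted in the same reads.

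The start regions of Bcl11b and Tbr1, the pair of deep layer genes whose ratio varied least, and of Fezf2 are shown for context. Over the 9 libraries Fezf2 tended to be lower where those genes were higher. The Pearson correlation of its log2 CPM was −0.81 with Bcl11b and −0.62 with Tbr1. This was not particular to the pair: it was −0.81 with Foxp2 and −0.71 with Cux1, and below 0 with each of the other layer genes. With the mean of each repeat number removed, it was −0.66 with Bcl11b, −0.46 with Tbr1, −0.48 with Foxp2 and −0.36 with Cux1. It was then above 0 with Rorb (0.46) and Tle4 (0.57). Each run is the 250 bases before the RefSeq start on the gene's strand (build GRCm38.p6), at chr12:108003415-108003664 on the minus strand for Bcl11b, chr2:61804203-61804452 on the plus strand for Tbr1 and chr14:12345866-12346115 on the minus strand for Fezf2. The gene positions given above begin further upstream. By them the runs of Tbr1 and Fezf2 lie inside the annotated gene, and that of Bcl11b lies partly inside it. Capitals mark matches on either strand to CANNTG, the E-box read by helix-loop-helix factors such as Neurod2, to AGGTGT, a T-box half-site, or to AGGTCA, a nuclear receptor half-site.
Bcl11b: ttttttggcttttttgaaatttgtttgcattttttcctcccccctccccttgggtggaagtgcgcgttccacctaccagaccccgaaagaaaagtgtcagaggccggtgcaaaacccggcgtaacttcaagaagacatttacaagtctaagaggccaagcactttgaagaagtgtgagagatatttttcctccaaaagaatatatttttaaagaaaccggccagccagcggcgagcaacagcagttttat
Tbr1: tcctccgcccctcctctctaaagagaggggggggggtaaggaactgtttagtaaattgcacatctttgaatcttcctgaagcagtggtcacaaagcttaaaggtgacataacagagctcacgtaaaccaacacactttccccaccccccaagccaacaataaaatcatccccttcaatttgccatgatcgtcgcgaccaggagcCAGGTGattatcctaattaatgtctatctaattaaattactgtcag
Fezf2: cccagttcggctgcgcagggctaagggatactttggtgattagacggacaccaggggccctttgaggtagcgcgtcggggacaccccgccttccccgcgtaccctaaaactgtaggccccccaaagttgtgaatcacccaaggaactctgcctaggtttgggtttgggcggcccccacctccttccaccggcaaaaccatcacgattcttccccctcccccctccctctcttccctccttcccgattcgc
Tbr1 held 1 match to CANNTG, and Bcl11b and Fezf2 held 0 matches to any of the 3. CANNTG stood in 66.2% of 32851 RefSeq start regions of the same length, AGGTGT in 11.8% and AGGTCA in 14.0%. The table had an entry for 8 of the 9 genes. A match describes these letters and says nothing of binding.

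The repeat number accounted for more of the spread of most layer genes than the group did. Of the variance of log2 CPM over the 9 libraries, 86.1% lay between repeat numbers for Rorb and 3.94% between groups, and for Fezf2 these shares were 77.7% and 2.27%. For Cux1 they were 61.4% and 7.11%, and for Foxp2 57.1% and 29.8%. The share between repeats exceeded that between groups for 8 of the 9, and for Neurod2 alone it was lower, at 24.8% against 34.6%. Over all genes tested the medians were 40.6% between repeats and 16.0% between groups. The labels do not say what the repeat numbers mark.

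Rorb separated the repeat numbers without overlap, at 43.9 to 53.3 CPM in the libraries numbered 1, 59.5 to 62.0 CPM in those numbered 2 and 65.4 to 70.8 CPM in those numbered 3. Fezf2 had 38.1 to 50.7 CPM in the libraries numbered 3 and 59.1 to 79.9 CPM in the other 6. Foxp2 showed the opposite arrangement, with 26.1 to 30.1 CPM in the libraries numbered 3 and 11.9 to 22.5 CPM in the others. The share of all genes that separate the repeat numbers in these ways was not counted, so these patterns cannot be called particular to the layer genes. In an edgeR test of the repeat number beside the group, added after seeing the values, 0 of the 9 passed, where 0.955% of all genes did. Rorb, Fezf2 and Foxp2 each had an adjusted p = 0.051, and 5 of the 9 had an unadjusted p under 0.05, where 26.6% of all genes did.

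That test rested on single libraries. Without PA + PS2 repeat 1 it passed 5 of the 9 layer genes and 20.2% of all genes, while without PA repeat 2 it passed 0 of the 9 and 0.00624% of all genes. It passed 2 of the 9 without PA + PS2 repeat 2 (1.26% of all genes), PA + PS2 repeat 3 (2.69%) or PA repeat 1 (4.5%), and 0 of the 9 without PA repeat 3 (0.0248%), control repeat 1 (0.0248%), control repeat 2 (0.00619%) or control repeat 3 (0.0247%). Striatal projection neuron markers, the other neurons that express Foxp2 and Bcl11b, summed to 759, 769 and 853 CPM in PA + PS2, 795, 679 and 844 CPM in PA, and 797, 746 and 864 CPM in control, with 15 of 15 detected above the filter. The median of these genes, as log2 CPM minus each gene's mean, was highest in PA repeat 1, at 0.23, where Foxp2 was second lowest, and lowest in PA repeat 2, at −0.41, where Foxp2 was lowest. Their part in the level of Foxp2 was not tested.

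**Figure D4:**
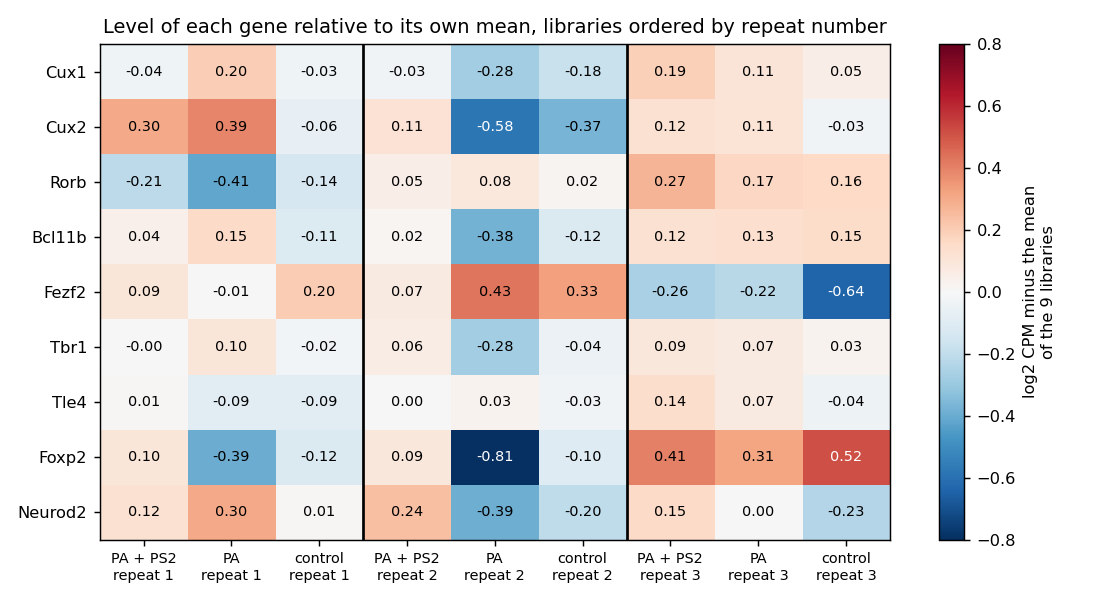
Log2 CPM of each gene minus its mean over the 9 libraries, with the libraries ordered by repeat number and, within it, PA + PS2, PA and control. Fezf2 is below its mean in all 3 libraries numbered 3 (−0.22 to −0.64) and Foxp2 above it (0.31 to 0.52), and PA repeat 2 holds the lowest Cux2 (−0.58) and Foxp2 (−0.81).

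For each layer gene, the protein-coding genes of at least 1 CPM with the most similar pattern over the 9 libraries were found by the Pearson correlation r of log2 CPM among 12255 genes, as a description. The points share depth, scaling and repeat number. Cux1 was nearest to Igfbpl1 (r = 0.98) and Lsm11 (0.98), Cux2 to Lrrc75b (0.97) and Rai2 (0.97), and Rorb to Htatsf1 (0.97). Bcl11b was nearest to Txnrd1 (0.97), Fezf2 to Tmem120b (0.96), Tbr1 to Fam168b (0.98), Foxp2 to Spin1 (0.98) and Neurod2 to Asic2 (0.98). Tle4, which varied least, had the weakest best match, Tnpo3 at 0.94. With 9 libraries and this many genes such values are common: between 8 genes for Tle4 and 193 for Rorb exceeded 0.9.

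Other genes of the layer programmes were read from lists. Of 18 tested callosal and upper layer genes, 0 passed in PA + PS2 against control, 7 stood above 0 and 11 below, and the median log2 fold change was −0.05. Lmo4, a LIM protein of callosal neurons, stood at 0.16 ± 0.12, and Rora, a nuclear receptor related to Rorb, at −0.39 ± 0.22, with 5.68 ± 0.198 CPM in PA + PS2 and 7.46 ± 1.22 CPM in control (SD, n = 3 each; edgeR adjusted p = 1.00 for both). Of 14 corticospinal and layer V genes 0 passed and the median was 0.0030, with Crim1, a transmembrane protein of corticospinal neurons, at −0.25 ± 0.11 (edgeR adjusted p = 0.80) and Ntng1, an axonal netrin-like protein, at −0.47 ± 0.24.

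Of 14 tested layer VI and subplate genes 0 passed in PA + PS2 against control, with a median of 0.03. Hs3st4, a heparan sulfate sulfotransferase of corticothalamic neurons, stood at 0.52 ± 0.13, with 16.2 ± 1.096 CPM in PA + PS2 and 11.3 ± 0.674 CPM in control (edgeR adjusted p = 0.19, and with the repeat as a block 0.088). It was also higher in PA + PS2 than in PA, where it averaged 12.3 ± 1.19 CPM, at 0.40 ± 0.13 (edgeR adjusted p = 0.53). Its groups did not overlap in either comparison. Ccn2, a secreted matrix protein used as a subplate marker and expressed by fibroblasts, stood at −2.16 ± 0.49, with 3.99 ± 2.52 CPM in PA + PS2 and 17.8 ± 4.97 CPM in control (edgeR adjusted p = 0.15, and with the repeat as a block 0.019). The fibroblast and mural markers, with a median of −1.52 and 8 of 8 tested below 0, lay in the same direction (Lum, at 0 reads in 1 library, was not tested). With the repeat as a block 3 of these 8 passed, all lower, where 1.17% of all genes passed. Their part in the level of Ccn2 was not tested. Cplx3, another subplate marker, was at 0 reads in 5 of 9 libraries and was not tested.

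Of 14 factors of the pallial excitatory lineage 0 passed in PA + PS2 against control, with a median of 0.02. Myt1l, a repressor of non-neuronal genes, stood at 0.28 ± 0.13, with 549 ± 29.6 CPM in PA + PS2 and 452 ± 51.8 CPM in control (edgeR adjusted p = 0.90). Eomes, the T-box factor of intermediate progenitors that precedes Tbr1, stood at −0.85 ± 0.23 (edgeR adjusted p = 0.23). Against PA, Eomes stood at −1.098 ± 0.23, with 4.35 ± 0.643 CPM in PA + PS2 and 9.34 ± 0.642 CPM in PA (edgeR adjusted p = 0.24, and with the repeat as a block 0.044). Progenitor and dividing cell markers had medians of −0.76 and −0.75 in PA + PS2 against control and against PA, with 11 of 12 below 0 in each, and 0 passed without the block. With the block 6 and 2 of the 12 passed, all lower, where 1.17% and 0.363% of all genes passed.

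The lists of excitatory markers, general neuron markers, GABAergic interneuron markers and striatal markers had medians of −0.02, 0.02, 0.06 and 0.02 in PA + PS2 against control, and 0 of their members passed with or without the block. Camk2a, a kinase of excitatory synapses, stood at −0.26 ± 0.10, with 74.3 ± 2.88 CPM in PA + PS2 and 89.1 ± 6.99 CPM in control (edgeR adjusted p = 0.58), while Nefm, a neurofilament subunit, stood at 0.41 ± 0.17 (edgeR adjusted p = 0.74). Reln, a secreted guidance protein of Cajal-Retzius cells and interneurons, stood at −0.31 ± 0.12 (edgeR adjusted p = 0.63), and Rarb, a retinoic acid receptor of striatal neurons, at −0.80 ± 0.25 (edgeR adjusted p = 0.38). The medians of astrocyte, oligodendrocyte lineage and microglia markers were −0.33, −0.88 and −0.94, and that of hippocampal and thalamic markers was −0.15. With the block 0 of 8 astrocyte, 3 of 8 oligodendrocyte lineage (Pdgfra, Olig1 and Olig2, all lower) and 0 of 5 microglia markers passed. The share of all genes was 1.17%. For PA against control 0 genes of any list passed, and the medians of the upper layer, layer V, layer VI and lineage lists were −0.01, 0.0049, −0.03 and −0.02. Genes with the smallest p there were Dkk3, a secreted protein of the Dickkopf family (0.29 ± 0.17), Cited2, a transcriptional coregulator of callosal neurons (−0.15 ± 0.09), Crym, a thyroid hormone binding protein of layer V (0.42 ± 0.23), and Bcl6, a repressor (−0.23 ± 0.15). Lmo3 stood at −0.14 ± 0.11, Nr4a2 at −0.20 ± 0.16, Emx1 at 0.17 ± 0.13 and Neurod1 at −0.15 ± 0.12 (edgeR adjusted p = 1.00 for all 8). Between PA + PS2 and PA the medians of the same lists were −0.01, −0.04, 0.04 and 0.01, with 0 genes of any list passing without the block. With the block, 3 of 8 oligodendrocyte lineage markers and 1 of 8 fibroblast and mural markers passed there, all lower, beside Eomes and the progenitor markers given above. The share of all genes was 0.363%. Lpl, a lipoprotein lipase, stood at 0.39 ± 0.18 in that comparison (edgeR adjusted p = 0.86), Lmo4 at 0.20 ± 0.12, Crim1 at −0.19 ± 0.11, Nefh, the heavy neurofilament subunit, at −0.40 ± 0.20 (edgeR adjusted p = 0.96), and Neurod6, a relative of Neurod2, at 0.20 ± 0.11. Ccn2 stood at −1.69 ± 0.49, with 12.9 ± 6.52 CPM in PA (edgeR adjusted p = 0.39).

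**Figure D5:**
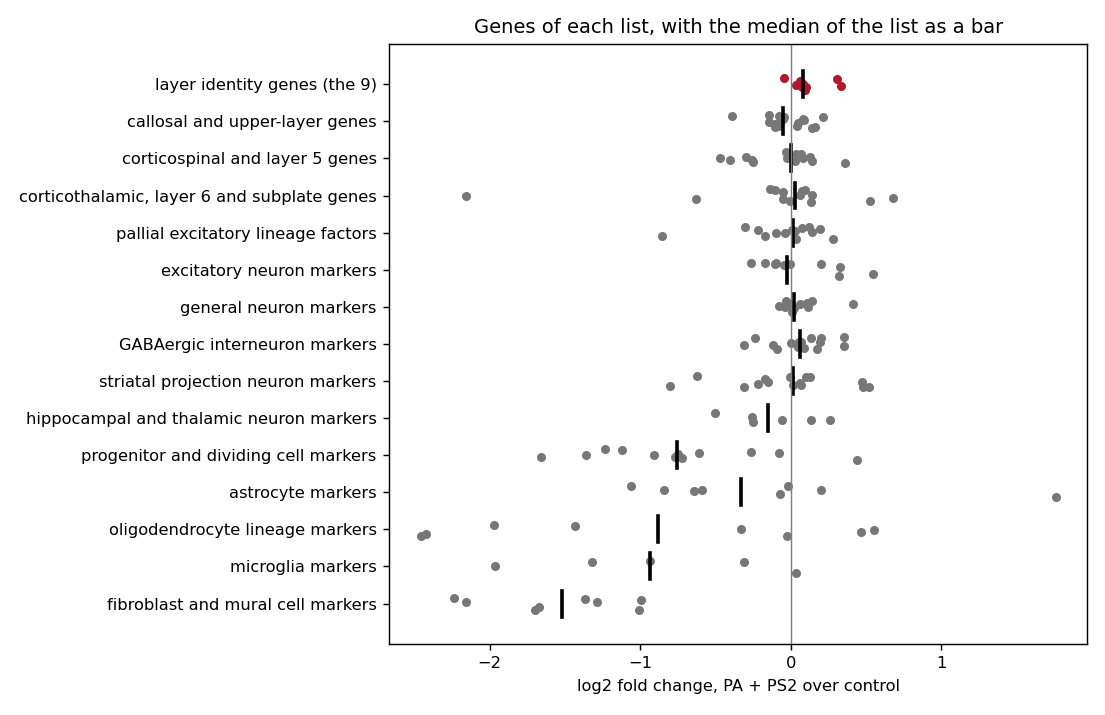
Log2 fold change of PA + PS2 over control for the 9 layer genes and for the tested genes of each list, 1 point per gene, with the list median as a vertical bar. The layer genes lie between −0.05 and 0.33, and the fibroblast and mural markers all lie below 0, with a median of −1.52.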

How the data were processed

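RNA was sequenced from 9 libraries. The deposited files hold raw read counts per Ensembl gene, whole numbers with no normalization, per the file headers. The submitters' processing notes list DESeq2 1.14.1, HTSeq 2.0.2, STAR 2.7.5 and cutadapt 4.2, with mm10 as the build and no roles; the annotation release and strand setting are not given in the sources used here. Reads of genes that overlap on opposite strands can therefore not be told apart. Names, types and exon lengths came from GENCODE M21, which matched 54165 of 54232 identifiers.

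Genes were filtered with filterByExpr (minimum count 10, minimum total 15), which left 15712, and scaled with TMM factors. CPM values use these scaled totals, and log2 CPM adds a prior count of 2. Differences were tested in R 4.3.3 with edgeR 4.0.16, by its quasi-likelihood F test on all 9 libraries at once (6 residual degrees of freedom), with p-values adjusted by Benjamini and Hochberg over all genes tested and a threshold of 0.05. A standard error is the size of the log2 fold change divided by the root of F, and 95% intervals use the moderated degrees of freedom. Intervals from counting cover counting error only.

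On simulated counts with these totals, the PA + PS2 against control test recovered 97% of 100 genes changed by a fold of 2. It recovered 63% of 100 changed by 1.5, among 15480 genes, with 14 false calls. The changed genes were drawn without those of low level, and the simulation held no repeat effect. These shares are therefore not the recovery to be had in the real libraries, and they do not exclude changes of this size in the layer genes. Deviations of libraries with the same repeat number correlated at 0.18, 0.22 and 0.13 for PA + PS2 and control and 0.42, 0.37 and 0.28 for PA and control, all over 0.1, which counts as paired here. The labels do not say what the number marks, so the test above leaves it out, and a blocked fit stands among the alternatives. For PA + PS2 and PA the values were 0.015, 0.29 and 0.30.

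Members and lists were chosen with earlier results of these data known. Named genes follow a rule of the 9 members, the 2 genes of smallest p or any that passed in each of 14 lists, and the 3 nearest genes by correlation; for the layer and lineage lists these are printed, for other lists 1 gene or the median alone, and for correlations the nearest 1 or 2; Cplx3 was added after its values were seen. The alternatives were other scalings, no filter, DESeq2 1.42.0, fits of the 2 groups compared, the repeat block and each library left out. For the upper minus deep level they also held the ratio of summed reads per kilobase and, not planned, Rorb left out.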

Additional observations from a re-analysis of the deposited data

How the results depend on the processing

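The count of layer genes passing was 0 of 9 in every comparison under every alternative, among them each library left out. The counts over all genes moved more. In PA + PS2 against control, 7 genes passed, against 17 with median-of-ratios scaling, 2 with library totals alone, 365 with no filter, 28 with only the 2 groups fitted, 224 with DESeq2, 184 with the repeat block that pairs libraries of the same number, and 1 when scaled to the general neuron markers. Leaving out 1 library gave 0 to 175: 175 without control repeat 1, 18 without PA repeat 1, 2 without PA + PS2 repeat 2, 1 without PA + PS2 repeat 3, and 0 without PA + PS2 repeat 1, control repeat 2 or control repeat 3. In PA + PS2 against PA, 0 passed, against 330 with no filter, 57 with the repeat block and 128 with DESeq2, and 0 to 37 with 1 library left out. In PA against control, 0 passed, against 23 with no filter. The cause was not tested. The repeat block changed no call of a layer gene.

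Scaling to the general neuron markers turned Rorb (−0.039) and Tbr1 (−0.0048) in PA + PS2 against control, and Cux1 (−0.049) and Tle4 (−0.026) in PA + PS2 against PA. With 1 library left out, the log2 fold change crossed 0 for these genes. In PA + PS2 against control the ranges were −0.29 to 0.14 for Fezf2, −0.034 to 0.32 for Foxp2 and −0.090 to 0.16 for Rorb. In PA against control they were −0.078 to 0.15 for Bcl11b, −0.023 to 0.19 for Cux1, −0.044 to 0.40 for Cux2, −0.18 to 0.25 for Fezf2, −0.046 to 0.28 for Neurod2, −0.16 to 0.10 for Rorb and −0.080 to 0.089 for Tbr1. In PA + PS2 against PA they were −0.063 to 0.16 for Bcl11b, −0.085 to 0.12 for Cux1, −0.054 to 0.38 for Cux2, −0.25 to 0.11 for Fezf2, −0.069 to 0.21 for Rorb and −0.015 to 0.15 for Tbr1.

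The difference in upper minus deep level between PA + PS2 and PA was −0.013, and 0.081 as a log2 ratio of summed reads per kilobase; with 1 library left out it ran from −0.058 to 0.022. For PA + PS2 against control, 0.081 became 0.16 under that ratio and 0.019 to 0.14 with 1 library left out, and for PA against control 0.094 became 0.082 and 0.033 to 0.15. In the fit without the repeat block, the 95% intervals of the layer genes reached folds of 0.530 to 1.99 with 3 libraries a group.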
